A study of Mus musculus with 9 samples.

Results

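The genes described here are 41 mouse genes of heterotrimeric G proteins and their regulators: 12 alpha subunits, 4 beta subunits, 10 gamma subunits and 15 regulators of G protein signaling (RGS proteins). They were taken by name, as the genes whose symbol stands alone on a probe set of the array, and make up 41 of the 22103 genes named on it. Of these, 40 had enough bright probe sets to be tested, among 16770 tested genes; the exception was Gng11. Cortical neurons of C57BL/6 mouse embryos, taken at embryonic day 15 and treated with AraC against dividing cells, were infected at day 5 of culture for 4 h with lentivirus and harvested at day 11. Each virus carried a short hairpin RNA: shTdp-43-1 or shTdp-43-2, both directed at the mRNA of the RNA-binding protein Tdp-43, or the control hairpin shCont, with 3 arrays for each. All 3 groups thus share infection, AraC and genotype, and no source used here gives the share of cells infected. The labels do not say whether the arrays of a group came from separate cultures, so the p-values measure the spread between these arrays, which may be technical. Motor neurons are named in the design text of the series, but the labels of the samples name cortical neurons, and these were followed.

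A heterotrimeric G protein relays a signal from a receptor in the cell membrane. The activated receptor makes the alpha subunit exchange GDP for GTP, and alpha then parts from the beta-gamma pair; both act on enzymes and ion channels. RGS proteins speed up GTP hydrolysis by alpha and so end the signal. Alpha subunits of the Gi/o family, which includes Gnaz, inhibit adenylyl cyclase; Gnas and Gnal stimulate it; Gnaq, Gna11 and Gna14 activate phospholipase C beta; Gna12 and Gna13 form a family of their own. In the forebrain this machinery serves dopamine, acetylcholine, GABA, opioid and cannabinoid receptors.

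Windows of the start sites of Gng7, Gng4, Rgs2 and Rgs17 are shown because these genes had some of the larger changes shared by both hairpins, and because Gng7 has a start site in each of a pair of separate windows. The sequences are from RefSeq (GRCm38.p6), run 5′ to 3′ on the strand of the gene and hold 250 bases before to 50 bases after the start. Capitals mark the short core of the cAMP response element, TGACG or its reverse complement CGTCA. The windows are chr10:81014876-81015175 and chr10:81001316-81001615 for Gng7, both on the minus strand, and chr13:13784057-13784356 on the plus strand for Gng4. They are chr1:144004100-144004399 for Rgs2 and chr10:5922351-5922650 for Rgs17, both on the minus strand.
Gng7, upstream start: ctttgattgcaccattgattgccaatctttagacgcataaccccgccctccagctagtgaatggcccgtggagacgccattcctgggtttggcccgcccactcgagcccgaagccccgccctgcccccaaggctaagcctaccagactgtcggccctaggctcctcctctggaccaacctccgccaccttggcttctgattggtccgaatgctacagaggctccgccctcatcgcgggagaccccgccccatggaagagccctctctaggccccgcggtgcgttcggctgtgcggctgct
Gng7, downstream start: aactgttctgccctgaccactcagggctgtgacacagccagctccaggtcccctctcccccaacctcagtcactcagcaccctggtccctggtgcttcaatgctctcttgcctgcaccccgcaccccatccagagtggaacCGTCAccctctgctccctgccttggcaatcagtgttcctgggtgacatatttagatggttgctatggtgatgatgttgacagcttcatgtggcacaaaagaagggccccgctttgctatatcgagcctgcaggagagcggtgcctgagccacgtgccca
Gng4, downstream start: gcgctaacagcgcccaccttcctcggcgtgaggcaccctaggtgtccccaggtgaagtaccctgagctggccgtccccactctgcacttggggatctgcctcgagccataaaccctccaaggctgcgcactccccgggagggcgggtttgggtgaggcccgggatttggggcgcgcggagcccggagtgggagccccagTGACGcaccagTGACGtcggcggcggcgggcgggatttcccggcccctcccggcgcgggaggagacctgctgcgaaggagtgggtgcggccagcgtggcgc
Rgs2: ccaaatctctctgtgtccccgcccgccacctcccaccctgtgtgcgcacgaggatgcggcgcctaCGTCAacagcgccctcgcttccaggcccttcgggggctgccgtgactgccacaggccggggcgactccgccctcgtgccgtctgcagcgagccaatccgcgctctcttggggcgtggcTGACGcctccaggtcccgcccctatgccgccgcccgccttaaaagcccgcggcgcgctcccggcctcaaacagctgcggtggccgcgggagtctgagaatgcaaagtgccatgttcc
Rgs17: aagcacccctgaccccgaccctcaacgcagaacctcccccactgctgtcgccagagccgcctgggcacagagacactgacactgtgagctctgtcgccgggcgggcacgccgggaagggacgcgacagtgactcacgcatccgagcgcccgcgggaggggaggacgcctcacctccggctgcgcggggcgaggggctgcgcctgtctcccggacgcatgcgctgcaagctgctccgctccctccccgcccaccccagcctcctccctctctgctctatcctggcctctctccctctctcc
The short core occurred once in the downstream Gng7 window and 2 times each in the Gng4 and Rgs2 windows shown. It was not found in the upstream window of Gng7 or in that of Gng4 (chr13:13783809-13784108, sequence not shown), nor in those of Rgs17, Rgs7 and Rgs19. Over the 33 matched genes, 12 of 46 windows held it, beside 20.8% of all 32851 windows of the same length. The full element TGACGTCA was in 0 of 46 member windows and in 1.79% of all windows. A GC box (GGGCGG on either strand) was in 27 of 46 member windows and in 35.7% of all windows. These are letter matches in a window, with no measurement of binding.

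The array reads each gene with several probe sets along its exons. A gene's log2 value is the mean of its probe sets at or above 6.07, the median over the table, and genes with at least 3 of these were tested with limma. A gene was called at a Benjamini-Hochberg adjusted p under 0.05 over all tested genes, and every adjusted p below comes from that fit or, for probe sets, from limma's diffSplice. Both hairpins are compared with the same shCont arrays. Tardbp, the gene of Tdp-43, read 7.84, 8.23 and 8.55 with shTdp-43-1, 8.22, 8.58 and 7.90 with shTdp-43-2, and 9.77, 9.94 and 10.06 with shCont. All hairpin arrays lay below all control arrays, with changes of -1.72 under shTdp-43-1 and -1.69 under shTdp-43-2 (SE 0.186 each; adjusted p = 0.000349 and 0.000109), and the hairpins differed by 0.03 (adjusted p = 0.956). Over all probe sets, array medians were 6.15 to 6.19 with shTdp-43-1, 6.06 to 6.09 with shTdp-43-2 and 6.04 to 6.06 with shCont. Every shTdp-43-1 array thus lay above all arrays of the other groups. This offset is one over all probe sets, and its cause was not tested. It did not appear in the median change over the tested genes. That median was 0.006 for shTdp-43-1, and shTdp-43-2 had -0.0075. Over the probe sets at or above the table median, arrays of 1 group correlated at 0.957 to 0.981. Arrays of different groups correlated at 0.945 to 0.977, so the ranges overlapped. Of all pairs across groups, the deviations from the group means were most alike for shTdp-43-1 array 2 and shTdp-43-2 array 3 (r = 0.681). Counts are therefore also given without both arrays, a choice made after seeing the data.

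Of the 40 tested genes, shTdp-43-1 changed 9 (6 higher, 3 lower; 22.5%), where 11.1% of all tested genes were called, 5.16% higher and 5.96% lower. shTdp-43-2 changed 15 (10 higher, 5 lower; 37.5%), where 21.9% of all were called, 7.76% higher and 14.1% lower. Both hairpins called 7 genes with the same sign (17.5%), beside 6.45% of all genes, 2.95% higher and 3.49% lower. Gnaz, Gng4, Gng7, Rgs2, Rgs7 and Rgs19 rose, and Rgs17 fell. The other 23 were not called with either hairpin, and their changes ran from -0.30 to 0.22. In the mean of both hairpins 13 were called (7 higher, 6 lower), beside 19.3% of all genes, 7.42% higher and 11.9% lower. That split is 13 higher and 3 lower with arrays centred on their medians, and 11 and 5 after quantile normalization. Without the pair of arrays named above, the counts were 6 for shTdp-43-1, 12 for shTdp-43-2, 5 for both and 11 for the mean. All 6 hairpin arrays lay above all 3 control arrays for 7 genes and below them for 7 (35%), beside 18.7% of all genes, 7.72% above and 10.9% below. By family, 5 of 12 alpha, 0 of 4 beta, 3 of 9 gamma and 9 of 15 RGS genes were called with at least 1 hairpin, 17 of 40 in all, beside 26.4% of all genes.

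**Figure D1:**
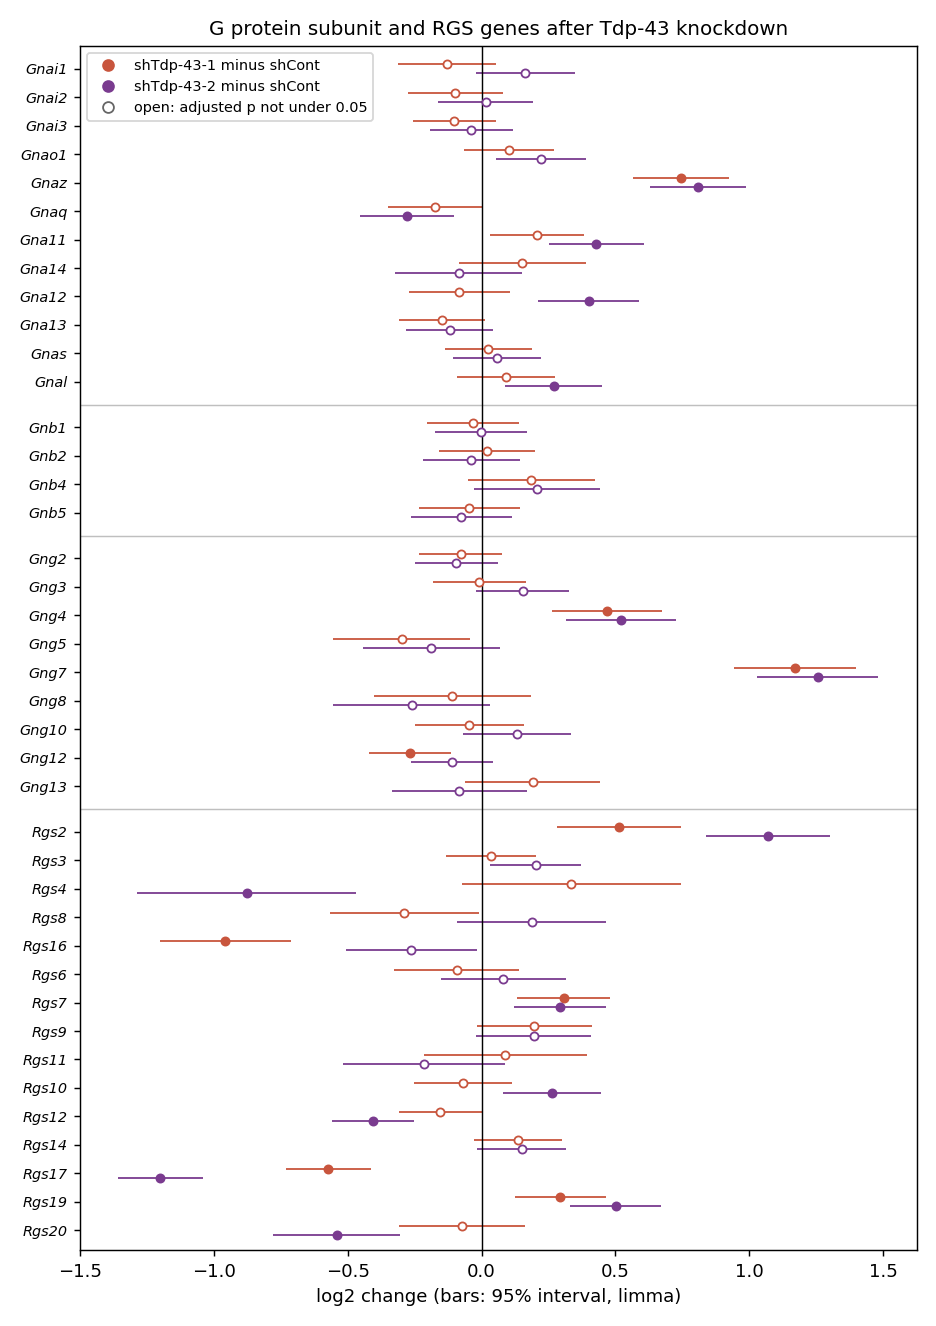
The log2 change of each tested gene with its 95% interval, shTdp-43-1 (orange) and shTdp-43-2 (purple) minus shCont; grey lines part alpha, beta, gamma and RGS genes, and filled points were called. Gng7 and Gnaz lie far to the right with both hairpins and Rgs17 far to the left, while the 4 beta genes sit around 0 and Rgs4 has points on both sides.

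Among the Gi/o alpha subunits, Gnaz rose and the other 4 were not called with either hairpin. Gnaz encodes Gz alpha, a subunit known for slow GTP hydrolysis and for its presence in neurons. Its log2 values were 11.77, 11.65 and 11.54 with shTdp-43-1, 11.75, 11.72 and 11.67 with shTdp-43-2, and 10.97, 10.85 and 10.91 with shCont. Every hairpin array lay well above every control array, and both hairpins gave nearly the same level. The changes were 0.74 under shTdp-43-1 and 0.81 under shTdp-43-2 (SE 0.0822 each; adjusted p = 0.000382 and 7.03e-05), which is 1.68-fold for the first hairpin and 1.75-fold for the second. All 9 of its probe sets were higher with each hairpin. Rsph14, a gene that overlaps Gnaz in the RefSeq annotation, had 0.09 under shTdp-43-1 and 0.08 under shTdp-43-2 (adjusted p = 0.613 and 0.672). Gnao1, the most prominent alpha subunit of brain, had 0.10 under shTdp-43-1 and 0.22 under shTdp-43-2 (adjusted p = 0.396 and 0.0589), with the 3 shTdp-43-2 arrays above the controls. Gnai2 and Gnai3 lay between -0.10 and 0.01. Gnai1 read -0.13 with shTdp-43-1 and 0.16 with shTdp-43-2, neither called, and is taken up again below among the genes that differed between the hairpins.

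The alpha subunits that act on phospholipase C went in different directions. Gna11 had log2 values of 11.33, 11.31 and 11.13 with shTdp-43-1, 11.49, 11.48 and 11.46 with shTdp-43-2, and 11.02, 11.01 and 11.12 with shCont. All 6 hairpin arrays were above the controls, though shTdp-43-1 array 3 only just. It rose with shTdp-43-2 by 0.43 (SE 0.0807; adjusted p = 0.003) and had 0.21 with shTdp-43-1 (adjusted p = 0.125). Gnaq, its close relative, had 12.03, 11.94 and 12.06 with shTdp-43-1, 11.86, 12.01 and 11.84 with shTdp-43-2, and 12.13, 12.22 and 12.20 with shCont. Here all 6 hairpin arrays were below the controls. The fall was called with shTdp-43-2 (-0.28, SE 0.0801; adjusted p = 0.0273) and not with shTdp-43-1 (-0.17; adjusted p = 0.187). Its 16 probe sets were all lower with each hairpin. Gna14 had 0.15 under shTdp-43-1 and -0.09 under shTdp-43-2, neither called.

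In the family of Gna12 and Gna13, Gna12 rose by 0.40 with shTdp-43-2 alone (SE 0.0863; adjusted p = 0.00654) and had -0.08 with shTdp-43-1. Its relative Gna13 had -0.15 under shTdp-43-1 and -0.12 under shTdp-43-2 (adjusted p = 0.214 and 0.289). Of the subunits that stimulate adenylyl cyclase, Gnas had 0.03 under shTdp-43-1 (95% interval -0.14 to 0.19) and 0.06 under shTdp-43-2 (-0.11 to 0.22). Gnas was read by 51 kept probe sets from a locus with several transcripts, some from alternative promoters, so its mean is a mixture. Gnal, which takes the place of Gnas in olfactory and striatal neurons, rose with shTdp-43-2 by 0.27 (SE 0.0831; adjusted p = 0.0377) and had 0.09 with shTdp-43-1 (adjusted p = 0.49). The Gnal call was lost without shTdp-43-1 array 2, shTdp-43-2 array 1 or 2, or any 1 of the control arrays, and the Gnaq call without shTdp-43-2 array 1 or 3 or any 1 control array.

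None of the 4 beta genes was called. Beta subunits are propeller-shaped proteins that pair with gamma subunits, and Gnb5 differs from the rest in pairing with RGS proteins of the R7 family. Gnb1 had -0.03 with shTdp-43-1 (95% interval -0.20 to 0.14) and -0.00 with shTdp-43-2 (-0.17 to 0.17). Gnb2 had 0.02 under shTdp-43-1 and -0.04 under shTdp-43-2, and Gnb5 had -0.05 under shTdp-43-1 and -0.08 under shTdp-43-2. Gnb4 gave the widest values of the 4, 0.19 under shTdp-43-1 and 0.21 under shTdp-43-2 (SE 0.108; adjusted p = 0.283 and 0.21), and its intervals reached 0.42 and 0.44. At an unadjusted p under 0.05, limma also called 0 of the 4 with either hairpin, where 27.6% of all genes passed under shTdp-43-1 and 33.5% under shTdp-43-2.

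The gamma genes, whose products carry the lipid anchor of the beta-gamma pair, held the change of greatest size among all 40 genes. Gng7 is known as a gamma subunit of striatal neurons, where in mice it is needed for normal levels of Gnal protein. It read 11.25, 10.91 and 10.93 with shTdp-43-1, 11.20, 11.16 and 10.99 with shTdp-43-2, and 9.85, 9.80 and 9.93 with shCont. The lowest hairpin array stood almost a full log2 unit above the highest control array. The rises were 1.17 under shTdp-43-1 and 1.26 under shTdp-43-2 (SE 0.104 each; adjusted p = 0.00015 and 2.14e-05), or 2.25-fold and 2.39-fold. Gng4 read 11.74, 11.76 and 11.55 with shTdp-43-1, 11.60, 11.90 and 11.71 with shTdp-43-2, and 11.19, 11.22 and 11.23 with shCont. Its control arrays were tightly grouped and below all hairpin arrays. It rose by 0.47 under shTdp-43-1 and 0.52 under shTdp-43-2 (SE 0.0942 each; adjusted p = 0.00998 and 0.00242), and all 5 of its probe sets were higher with each hairpin.

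Gng12 was the 1 gamma gene called lower, and with 1 hairpin only. It had 11.17, 11.15 and 11.16 with shTdp-43-1, 11.28, 11.37 and 11.30 with shTdp-43-2, and 11.43, 11.44 and 11.40 with shCont. Its 6 hairpin arrays all lay below the controls, shTdp-43-1 lowest. The change was -0.27 with shTdp-43-1 (SE 0.0701; adjusted p = 0.0321) and -0.11 with shTdp-43-2 (adjusted p = 0.307). This call was lost without any 1 of the shTdp-43-1 or control arrays. The 6 other tested gamma genes, Gng2, Gng3, Gng5, Gng8, Gng10 and Gng13, had changes from -0.30 to 0.19 and were not called. The widest of them was Gng5, with -0.30 under shTdp-43-1 and -0.19 under shTdp-43-2 (SE 0.117; adjusted p = 0.125 and 0.294). Gng11 had only 1 of 4 probe sets above the brightness limit. Admitting genes with 1 probe set, it had 0.15 under shTdp-43-1 and 0.28 under shTdp-43-2 (SE 0.143; adjusted p = 0.536 and 0.232).

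**Figure D2:**
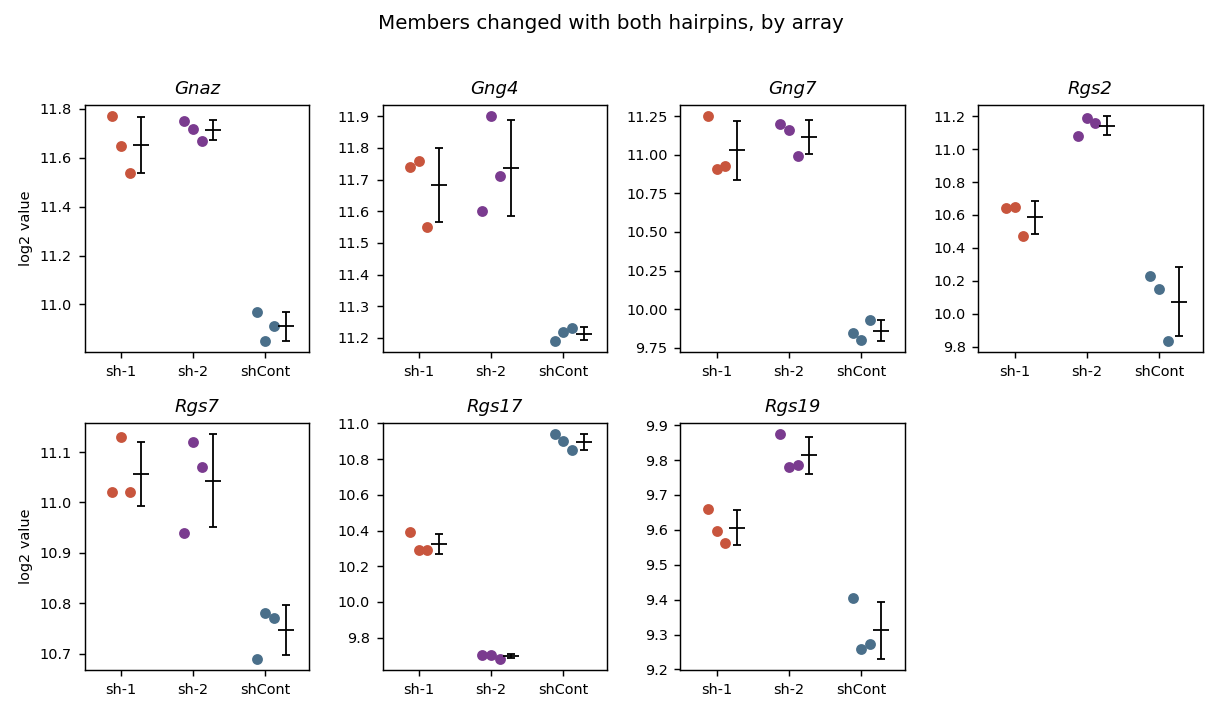
Log2 values on each array for the 7 genes that both hairpins changed with the same sign; sh-1 and sh-2 are shTdp-43-1 and shTdp-43-2, and bars give the mean and SD of 3 arrays on an axis that does not start at 0. In all 7 panels the hairpin arrays lie on one side of the shCont arrays, and for Rgs2 and Rgs17 the shTdp-43-2 arrays lie farthest from the controls.

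The RGS proteins of the RZ family, which are known to act on Gz and other Gi/o alpha subunits, included 2 that changed with both hairpins, in opposite directions. Rgs17 read 10.39, 10.29 and 10.29 with shTdp-43-1, 9.70, 9.70 and 9.68 with shTdp-43-2, and 10.94, 10.90 and 10.85 with shCont. The 3 groups were fully apart, with shTdp-43-1 between the others. The changes were -0.57 under shTdp-43-1 and -1.20 under shTdp-43-2 (SE 0.0725 each; adjusted p = 0.000853 and 5.75e-06), which left 0.673 and 0.435 of the control level. All 8 probe sets were lower with each hairpin. Rgs19 had 9.66, 9.60 and 9.56 with shTdp-43-1, 9.88, 9.78 and 9.79 with shTdp-43-2, and 9.41, 9.26 and 9.27 with shCont. Every hairpin array was above the controls, those of shTdp-43-2 highest. The rise was 0.29 under shTdp-43-1 and 0.50 under shTdp-43-2 (SE 0.0774 each; adjusted p = 0.0324 and 0.000912). Rgs20, the remaining RZ gene, fell with shTdp-43-2 by 0.54 (SE 0.108; adjusted p = 0.00419) and had -0.07 with shTdp-43-1.

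In the R4 family, small RGS proteins that act on Gi/o and Gq alpha subunits, Rgs2 rose with both hairpins. Rgs2 is known for its preference for Gq alpha and for rapid induction by neuronal activity. It read 10.64, 10.65 and 10.47 with shTdp-43-1, 11.08, 11.19 and 11.16 with shTdp-43-2, and 10.23, 10.15 and 9.83 with shCont. The groups did not overlap, and shTdp-43-2 gave the higher values. The changes were 0.51 under shTdp-43-1 and 1.07 under shTdp-43-2 (SE 0.106 each; adjusted p = 0.0113 and 6.08e-05), or 1.43-fold and 2.10-fold, and all 8 probe sets were higher with each hairpin. Rgs16 fell with shTdp-43-1 by 0.96 (SE 0.112; adjusted p = 0.000526) and had -0.26 with shTdp-43-2 (adjusted p = 0.123). Rgs4 fell with shTdp-43-2 by 0.88 (SE 0.187; adjusted p = 0.00599) and had 0.34 with shTdp-43-1 (adjusted p = 0.265). Rgs3 had 0.04 under shTdp-43-1 and 0.20 under shTdp-43-2, and Rgs8 had -0.29 under shTdp-43-1 and 0.19 under shTdp-43-2, none of them called.

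The R7 family holds RGS proteins that bind Gnb5 in place of a gamma subunit. Rgs7 rose with both hairpins: it read 11.02, 11.13 and 11.02 with shTdp-43-1, 10.94, 11.12 and 11.07 with shTdp-43-2, and 10.69, 10.78 and 10.77 with shCont. All hairpin arrays were above the controls, by a modest margin. The changes were 0.31 under shTdp-43-1 and 0.29 under shTdp-43-2 (SE 0.0791 each; adjusted p = 0.0301 and 0.0208). Of its 22 probe sets, 21 were higher with shTdp-43-1 and 22 with shTdp-43-2. Rgs9, known for its striatal form, had 0.20 under each hairpin (SE 0.0978; adjusted p = 0.215 and 0.19), while Rgs6 and Rgs11 ran from -0.21 to 0.09. In the R12 family, whose larger members Rgs12 and Rgs14 also carry a domain that holds alpha in its GDP form, Rgs12 fell with shTdp-43-2 by 0.41 (SE 0.0706; adjusted p = 0.00187) and had -0.15 with shTdp-43-1. Rgs10 rose with shTdp-43-2 by 0.26 (SE 0.0836; adjusted p = 0.0434) and had -0.07 with shTdp-43-1. Rgs14 had 0.14 under shTdp-43-1 and 0.15 under shTdp-43-2, not called.

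Calls shared by both hairpins held with each of the 9 arrays left out in turn for Gnaz, Gng4, Gng7, Rgs2 and Rgs17. Rgs19 lost its shTdp-43-1 call without any 1 of the shTdp-43-1 or control arrays. Rgs7 lost a call without shTdp-43-1 array 2 or 3, shTdp-43-2 array 2 or 3, or any 1 control array. The Rgs10 call was lost without shTdp-43-1 array 2, any 1 shTdp-43-2 array or any 1 control array. The rises of Gna11 and Gna12 and the falls of Rgs4, Rgs12, Rgs16 and Rgs20 each stayed past the threshold in their hairpin with each array left out in turn. With the median of the probe sets of a gene, Rgs12 had -0.25 under shTdp-43-2 (adjusted p = 0.115) and was not called, nor were Gng12 and Gng4 under shTdp-43-1 (-0.14 and 0.43; adjusted p = 0.422 and 0.0761).

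The difference between the hairpins was tested in the same fit, as shTdp-43-2 minus shTdp-43-1. It was called for 10 of the 40 genes (25%; 6 higher, 4 lower), beside 11.5% of all genes, 4.22% higher and 7.31% lower; 8 of the 10 are RGS genes. Rgs4, an RGS protein abundant in cortex, read 9.47, 10.22 and 10.19 with shTdp-43-2, 11.10, 11.33 and 11.10 with shTdp-43-1, and 10.97, 10.99 and 10.55 with shCont. The hairpins lay on opposite sides of the controls, without overlap. They differed by -1.21 (SE 0.187; adjusted p = 0.002), and the shTdp-43-2 arrays had the widest spread of any group here (SD 0.426), array 1 being lowest. Rgs4 was read by 7 probe sets, all lower than shCont with shTdp-43-2 and all higher with shTdp-43-1. Rgs16 read 9.38, 9.42 and 9.46 with shTdp-43-2, 8.72, 8.88 and 8.57 with shTdp-43-1, and 9.92, 9.57 and 9.55 with shCont. Both hairpins were below the controls, shTdp-43-2 by little, and the difference was 0.70 (SE 0.112; adjusted p = 0.00253).

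Rgs17 and Rgs2, which changed with both hairpins, did so more with shTdp-43-2: the differences were -0.63 (SE 0.0725; adjusted p = 0.00041) and 0.56 (SE 0.106; adjusted p = 0.00654). Gna12 read 12.38, 12.21 and 12.12 with shTdp-43-2, 11.85, 11.72 and 11.69 with shTdp-43-1, and 11.84, 11.82 and 11.86 with shCont. Only the shTdp-43-2 arrays stood apart, and the hairpins differed by 0.48 (SE 0.0863; adjusted p = 0.00443). Rgs20 read 8.99, 9.28 and 9.05 with shTdp-43-2, 9.50, 9.62 and 9.60 with shTdp-43-1, and 9.51, 9.58 and 9.86 with shCont. Again shTdp-43-2 was the group apart, by -0.47 from shTdp-43-1 (SE 0.108; adjusted p = 0.0169).

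The other 4 differences were smaller or less secure. Rgs8, an RGS protein known from Purkinje cells, read 9.473, 9.203 and 8.975 with shTdp-43-2, 8.912, 8.746 and 8.567 with shTdp-43-1, and 9.132, 9.004 and 8.952 with shCont. The difference of 0.48 (SE 0.127; adjusted p = 0.0331) lay between hairpin groups of which neither was called against the controls. Rgs10 had 10.81, 10.90 and 10.86 with shTdp-43-2, 10.57, 10.58 and 10.42 with shTdp-43-1, and 10.67, 10.64 and 10.48 with shCont, a difference of 0.33 (SE 0.0836; adjusted p = 0.0245). In Rgs10 the shTdp-43-1 arrays overlapped the controls and those of shTdp-43-2 were above both. Gnai1, a common Gi alpha subunit, had 12.01, 12.10 and 12.02 with shTdp-43-2, 11.84, 11.66 and 11.75 with shTdp-43-1, and 11.95, 11.93 and 11.76 with shCont, a difference of 0.29 (SE 0.084; adjusted p = 0.0431). Rgs12 had 8.87, 8.93 and 8.85 with shTdp-43-2, 9.15, 9.10 and 9.15 with shTdp-43-1, and 9.31, 9.29 and 9.26 with shCont, a difference of -0.25 (SE 0.0706; adjusted p = 0.0403). The shTdp-43-2 arrays of Gnai1 lay above those of the other groups, which overlapped each other, and for Rgs12 all 3 groups were apart. With the median of the probe sets of a gene the Rgs12 difference was -0.08 (adjusted p = 0.708). The differences of Rgs4, Rgs16, Rgs17, Rgs2 and Gna12 were called with each array left out in turn. The other 5 were not: Rgs20 was lost without shTdp-43-1 array 2 or 3 or shTdp-43-2 array 1, and Rgs10 without shTdp-43-1 array 3 or shTdp-43-2 array 1 or 2. Rgs8 was lost without shTdp-43-1 array 2 or 3, shTdp-43-2 array 1 or 2, or control array 2; Gnai1 without most single arrays; and Rgs12 without any 1. The count was 5 without shTdp-43-1 array 3 or shTdp-43-2 array 1, and 6 without shTdp-43-1 array 2, without shTdp-43-2 array 2, or without both arrays named at the start.

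**Figure D3:**
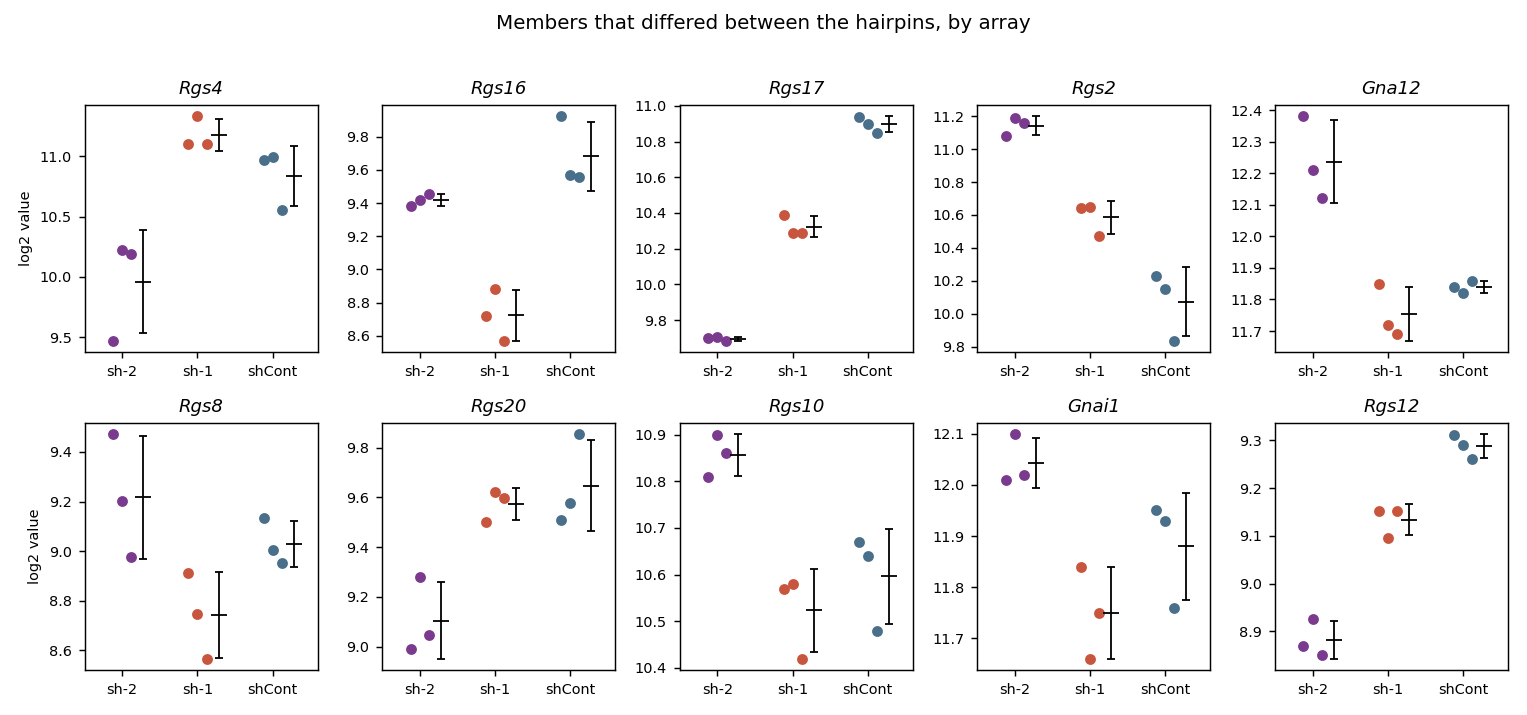
Log2 values on each array for the 10 genes called between the hairpins, ordered by the size of the difference; sh-2 and sh-1 are shTdp-43-2 and shTdp-43-1, and bars give the mean and SD of 3 arrays on an axis that does not start at 0. Rgs4 is the panel where the hairpins lie on opposite sides of shCont without overlap, and Rgs17 and Rgs2 show both hairpins on one side with shTdp-43-2 farther out.

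Each probe set was also set against the rest of its gene. Of 577 probe sets of these genes, relative usage was called for 5 with shTdp-43-1 (beside 0.494% of all 248701 probe sets) and for 13 with shTdp-43-2 (beside 1.24%). The hairpins shared 2 of these, of equal sign (beside 0.189%), 1 in Gng7 and 1 in Rgs19. Gng7 probe set 5350724 read 11.35, 11.27 and 11.32 with shTdp-43-1, 11.32, 11.11 and 11.29 with shTdp-43-2, and 11.38, 11.08 and 11.31 with shCont. Its groups overlapped throughout, with changes of 0.05 under shTdp-43-1 and -0.02 under shTdp-43-2. The other 5 probe sets of Gng7 were all higher than shCont, by 0.54 to 1.72 under shTdp-43-1 and by 0.85 to 1.85 under shTdp-43-2. Relative to them the probe set thus lay at -1.34 under shTdp-43-1 and -1.53 under shTdp-43-2 (diffSplice, adjusted p = 2e-05 and 4.58e-07). Exon coordinates were not used here, so the place of this probe set in the gene is not given.

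Rgs19 probe set 5047258 read 7.55, 7.48 and 7.84 with shTdp-43-1, 8.21, 8.01 and 7.41 with shTdp-43-2, and 8.27, 8.15 and 8.16 with shCont. It lay below the controls on all shTdp-43-1 arrays and overlapped them with shTdp-43-2. The rest of the gene had 0.37 under shTdp-43-1 and 0.58 under shTdp-43-2, so its relative usage was -0.94 under shTdp-43-1 and -0.90 under shTdp-43-2 (adjusted p = 0.00134 and 0.00115); the shTdp-43-2 call was lost without shTdp-43-2 array 3. diffSplice pools the spread over the probe sets of a gene, so that a probe set noisier than its neighbours passes more readily. Where each probe set was tested with its own spread, an alternative chosen after seeing the data, 0 probe sets of these genes were called with shTdp-43-1 and 2 with shTdp-43-2, and 0 with both. Over all probe sets the shares were 0.00523% under shTdp-43-1, 0.151% under shTdp-43-2 and 0.00362% with both. Those at an unadjusted p under 0.05 in that limma test were 54 of 577 under shTdp-43-1 and 55 under shTdp-43-2, beside 7.79% and 9.37% of all probe sets. The 2 were Gng7 5350724 (adjusted p = 0.0181; 0.0707 with shTdp-43-1) and Rgs2 5214302 (adjusted p = 0.0316), which had 0.29 with shTdp-43-2 where the rest of Rgs2 had 1.18.

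**Figure D4:**
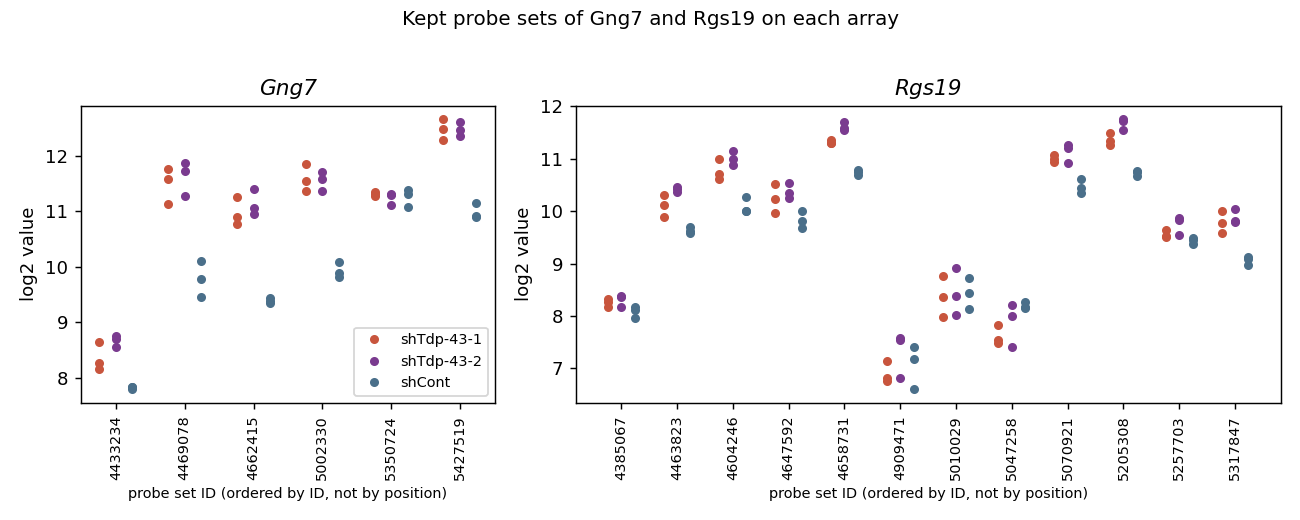
Log2 values of the kept probe sets of Gng7 (6) and Rgs19 (12) on each of the 9 arrays, ordered by probe set ID and not by place in the gene. In Gng7 the points of 5350724 coincide in all groups while the other 5 probe sets are higher with both hairpins; in Rgs19 most probe sets are higher with the hairpins and 5047258 is not.

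The genes around these in the pathway were read from lists of receptors, regulators, effectors and cAMP enzymes. In the mean of both hairpins, where 7.42% of all genes were called higher and 11.9% lower, the receptors known to couple to these G proteins had 7 called higher and 5 lower of 25 tested, with a median change of 0.12 beside -0.00 over all genes. With both hairpins 7 were called higher and 2 lower, beside 2.95% and 3.49% of all genes. Gabbr2, the subunit of the GABA-B receptor that couples to Gi/o, read 11.81, 11.57 and 11.60 with shTdp-43-1, 11.96, 11.95 and 11.73 with shTdp-43-2, and 10.75, 10.77 and 10.75 with shCont. It rose by 0.90 under shTdp-43-1 and 1.12 under shTdp-43-2 (SE 0.0932; adjusted p = 0.000302 and 2.14e-05), with every hairpin array above the controls. Its partner Gabbr1 was not called. The muscarinic receptors Chrm4, Chrm3 and Chrm2, of which Chrm3 couples to Gq and the others to Gi/o, rose by 0.78, 0.70 and 0.63 in the mean (adjusted p = 0.000832, 0.000188 and 0.000579). The 2 called lower with both hairpins were Cnr1, the cannabinoid receptor of neurons, and Oprl1, the nociceptin receptor, both coupled to Gi/o. Cnr1 read 10.41, 10.24 and 10.30 with shTdp-43-1, 10.71, 10.77 and 10.52 with shTdp-43-2, and 11.12, 11.10 and 11.05 with shCont. Every hairpin array lay below the controls, and the mean change was -0.60 (SE 0.0754; adjusted p = 0.00037). Oprl1 had -0.37, also with every hairpin array below (adjusted p = 0.00525). The other 3 called lower in the mean were the serotonin receptors Htr2a (-0.31) and Htr1b (-0.30) and the adrenergic receptor Adra2c (-0.25), with adjusted p = 0.0499, 0.0273 and 0.0314 in that order. These 3 were called with shTdp-43-1 and not with shTdp-43-2. Under shTdp-43-1 they had -0.60, -0.49 and -0.31 (adjusted p = 0.00852, 0.00834 and 0.0335). Under shTdp-43-2 they had -0.03, -0.10 and -0.19 (adjusted p = 0.895, 0.503 and 0.14). For shTdp-43-2 minus shTdp-43-1, 7 of the 25 receptors were called higher and 3 lower, beside 4.22% and 7.31% of all genes. Among them, Htr1a had -0.91 under shTdp-43-1 and 0.33 under shTdp-43-2 (adjusted p = 0.00219 and 0.112). Htr2c had 0.41 under shTdp-43-1 and -0.56 under shTdp-43-2 (adjusted p = 0.0714 and 0.011).

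Among 20 regulators other than the RGS genes, 3 were called higher and 1 lower in the mean, beside 7.42% and 11.9% of all genes. The same shares stand beside the counts in the mean that follow. Ric8b, a chaperone of Gs and Golf alpha subunits, rose by 0.43 (adjusted p = 0.00204), and Gprin3 and Gprin1, of which Gprin1 binds activated Gi/o alpha, rose by 0.42 and 0.24 (adjusted p = 0.00242 and 0.0405). Gprin1 was called with neither hairpin (adjusted p = 0.0518 under shTdp-43-1 and 0.129 under shTdp-43-2). Rgs7bp, which anchors R7 proteins at the membrane, was lower by the mean (-0.40; adjusted p = 0.0268), but with shTdp-43-2 it had -0.90 (adjusted p = 0.000543) and with shTdp-43-1 0.11 (adjusted p = 0.609). Of 20 direct effectors, 3 were higher and 1 lower. The potassium channel subunit Kcnj6, opened by beta-gamma, rose by 0.59 (adjusted p = 0.00404), the adenylyl cyclases Adcy3 and Adcy9 by 0.51 and 0.31 (adjusted p = 0.0047 and 0.0138), and the phospholipase Plcb3 fell by 0.31 (adjusted p = 0.0109). Adcy9 and Plcb3 were called with shTdp-43-2 (adjusted p = 0.0117 and 0.00379) and not with shTdp-43-1 (adjusted p = 0.072 and 0.135). Of 21 genes of cAMP-dependent kinase and phosphodiesterases 0 were higher and 3 lower: Pde1a by -0.33, Pde7a by -0.31 and Prkacb by -0.22 (adjusted p = 0.039, 0.0111 and 0.0341). None of these 3 was called with both hairpins. Pde1a was called with shTdp-43-2 alone, Pde7a with shTdp-43-1 alone and Prkacb with neither. Of 8 further tested G protein subunit and RGS genes outside the 41, Rgs5 alone was called in the mean, at -0.62 (adjusted p = 0.000716). Rgs13 was called with shTdp-43-2 alone, at 0.80 (adjusted p = 0.00955), and had -0.07 with shTdp-43-1 (adjusted p = 0.817). All these counts come from lists chosen with earlier results of these data known.

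**Figure D5:**
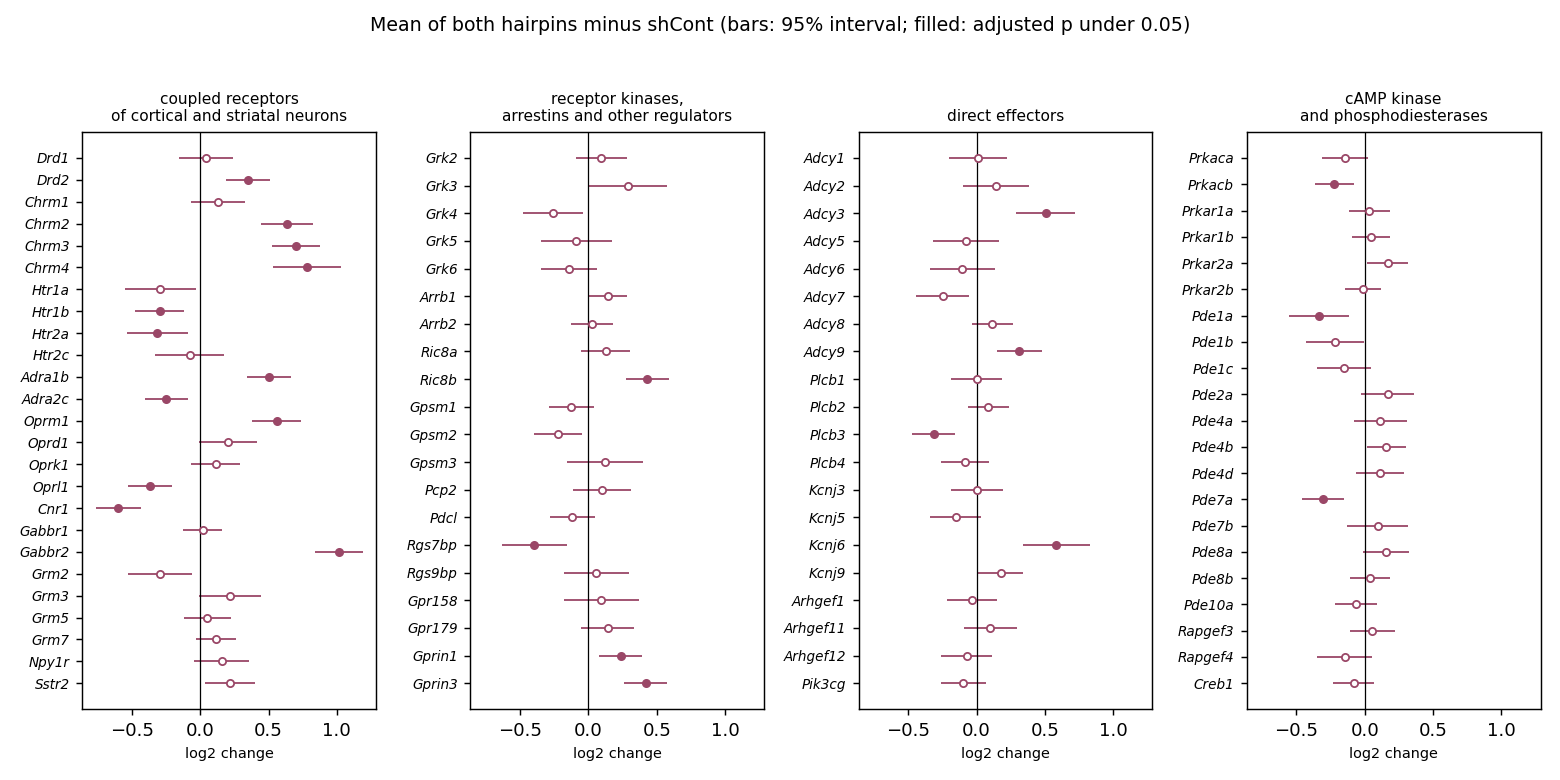
The log2 change of the listed pathway genes, mean of both hairpins minus shCont, with 95% intervals; filled points were called. Among receptors, Gabbr2 lies farthest to the right and Cnr1 farthest to the left, and most effectors, regulators and cAMP enzymes sit around 0.

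Several of these genes are known to be enriched in cell types other than cortical neurons, so markers were read beside them. In bulk RNA, fewer cells of a type and less RNA per cell cannot be told apart. The marker counts in the mean stand beside 7.42% of all genes called higher and 11.9% lower. General neuronal markers summed to log2 14.33 to 14.47 with shTdp-43-1, 14.39 to 14.50 with shTdp-43-2 and 14.35 to 14.47 with shCont, and 0 of 5 were called. Of 10 markers of striatal medium spiny neurons, 4 were higher in the mean (Penk by 1.11, Tac1 by 0.71, Drd2 by 0.35, Ppp1r1b by 0.33) and 1 lower (Pdyn by -0.41). The other 5 of the list, Drd1, Rarb, Bcl11b, Meis2 and Adcy5, were not called in the mean. Rarb was called with each hairpin in opposite directions, at 0.39 under shTdp-43-1 and -0.36 under shTdp-43-2 (adjusted p = 0.0256 and 0.0204). The sum of the 10 markers was 13.18 to 13.30 with shTdp-43-1, 13.15 to 13.25 with shTdp-43-2 and 12.97 to 13.14 with shCont. The part of medium spiny neurons in the Gng7, Gnal and Rgs9 values was not tested. Of 7 fibroblast and pericyte markers 0 were higher and 3 lower in the mean (Dcn, Fn1 and Pdgfrb). Sums of the 7 were 11.65 to 11.72 with shTdp-43-1, 11.31 to 11.44 with shTdp-43-2 and 11.94 on each shCont array. Their part in the value of Rgs5, itself a pericyte gene, was not tested. Of 7 microglial markers 0 were called in the mean; their sums overlapped between the groups, and Rgs10 is a gene known from microglia. For astrocytes, Aqp4 was lower in the mean (-0.51) and the other 7 were not called in it. With shTdp-43-2, Slc1a2 and Gja1 were also called lower, at -0.35 and -0.36 (adjusted p = 0.0247 and 0.0304). With shTdp-43-1 they had 0.13 and -0.15 (adjusted p = 0.405 and 0.362). Sums of the 8 astrocyte markers were 13.39 to 13.5 with shTdp-43-1, 13.33 to 13.42 with shTdp-43-2 and 13.46 to 13.75 with shCont. Of 7 markers of cortical excitatory neurons 2 were higher in the mean (Slc17a7, Camk2a) and 2 lower (Slc17a6, Neurod6). Their sums were 13.19 to 13.42 with shTdp-43-1, 13.08 to 13.21 with shTdp-43-2 and 13.28 to 13.38 with shCont. Of 8 markers of inhibitory neurons 1 was higher in the mean (Gad2) and 2 lower (Dlx1, Sst). Their sums were 13.36 to 13.61 with shTdp-43-1, 13.23 to 13.28 with shTdp-43-2 and 13.35 to 13.57 with shCont. For astrocyte, excitatory and inhibitory markers, every shTdp-43-2 sum thus lay below every shCont sum, while shTdp-43-1 overlapped the controls. The part of this in the genes called with shTdp-43-2 was not tested. Gad1 was called with each hairpin in opposite directions, at 0.29 under shTdp-43-1 and -0.32 under shTdp-43-2 (adjusted p = 0.0372 and 0.014). Sst had -0.16 under shTdp-43-1 and -1.30 under shTdp-43-2 (adjusted p = 0.437 and 6.08e-05). In the mean, oligodendrocyte markers had 0 of 6 called and endothelial markers 1 of 4, Tek, which was higher. Of the markers called in the mean, only Penk, Tac1, Drd2, Pdgfrb, Aqp4, Neurod6 and Gad2 were called with both hairpins in the same direction.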

How the data were processed

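RNA was read on 9 Affymetrix Mouse Exon 1.0 ST arrays. The deposited table holds log2 values per probe set, computed by the authors by RMA (Affymetrix Expression Console) for build mm9, per the submitters' processing notes; no source used here gives versions. RMA brings all arrays to 1 distribution, so a change shared by most probes is largely removed. Of 1256831 probe sets, 318760 name 1 gene, 6684 several (none a member) and 931387 none. Symbols were updated through RefSeq (GRCm38.p6): 18006 were current, 4227 updated and 63 kept.

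Gene values are means of kept probe sets (9-array mean of at least 6.07, at least 3 a gene). The 3 groups were fitted together with limma 3.58.1 in R 4.3.3 (lmFit, eBayes; 6 residual degrees of freedom) on 16770 genes. Probe set usage was tested with diffSplice over 248701 probe sets. Adjusted p-values are Benjamini-Hochberg over all genes or probe sets. An exact permutation test of 3 arrays against 3 cannot give a p below 0.1, so none was run. The number of arrays limits the precision. The scripts were tested on simulated data.

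Every array value is given for genes called with both hairpins or between them, then for others called in the mean; elsewhere at most 4 called genes a list. Other genes named were chosen after their values were seen. Members and lists were chosen with earlier results of these data known. Replicate numbers are shared by the groups but were not taken to pair the arrays: deviations of same-numbered arrays correlated from -0.383 to 0.593. Alternatives were other dim filters, array centring, quantile normalization, medians of probe sets, 1 probe set a gene, trend with robust eBayes, the replicate block and leaving out arrays. Genes listed but not tested are not analysed here.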

Additional observations from a re-analysis of the deposited data

Results flagged for a closer look

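The results here are those where the hairpins, compared with the same controls, differed from each other in the limma test of shTdp-43-2 minus shTdp-43-1. Such differences were negative for Rgs4 (-1.21 on the log2 scale, adjusted p = 0.002), Rgs17 (-0.627, adjusted p = 0.00041), Rgs20 (-0.467, adjusted p = 0.0169) and Rgs12 (-0.251, adjusted p = 0.0403). They were positive for Rgs16 (0.696, adjusted p = 0.00253), Rgs2 (0.556, adjusted p = 0.00654), Gna12 (0.483, adjusted p = 0.00443), Rgs8 (0.476, adjusted p = 0.0331), Rgs10 (0.333, adjusted p = 0.0245) and Gnai1 (0.294, adjusted p = 0.0431). Over the 3 arrays of each hairpin, the groups did not overlap in any of the 10. The 10 were selected by their difference on these same arrays, so the lack of overlap adds no support. The residual Tardbp level differed by 0.03 between the hairpins (adjusted p = 0.956).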

How the results depend on the processing

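Under 18 other settings no called log2 change of a member against shCont turned its sign; those that were not called turned 44 times, in 17 genes, none larger than 0.154 as reported. The calls with both hairpins held in all 18 for Gnaz, Gng7, Rgs2 and Rgs17, in 17 for Gng4, in 10 for Rgs19 and in 9 for Rgs7. Gna11 was called with both hairpins in 2, median centring and quantile normalization. With the median of the probe sets of a gene, 8 members were called in the mean of the hairpins in place of 13, and 14 pathway genes in place of 24; the cause was not tested. The count of probe sets with changed usage in both hairpins, 2 as reported, was 4 under a dim filter set at the 25th percentile, with centring, with quantile normalization and with each probe set tested alone. It was 6 with the replicate number as a block, which left the 7 members called with both hairpins as they were (1314 genes in all, against 1081). It was 1 without shTdp-43-1 array 2 and shTdp-43-2 array 3, and 0 with each probe set's own spread; the count between hairpins was 6 without those arrays. With 1 array left out, ranges were 6 to 9 members for shTdp-43-1, 11 to 15 for shTdp-43-2, 5 to 7 for both, 10 to 13 for the mean and 5 to 9 between hairpins. They were 16 to 27 pathway genes and 1 to 3 probe sets, the 1 without shTdp-43-2 array 3. Fewer arrays also give the test less power. With centring the median over all genes moved by 0.0444 under shTdp-43-1 and 0.084 under shTdp-43-2. Members called with shTdp-43-2, 15 as reported, were 21 with centring and 19 after quantile normalization. With shTdp-43-1 they were 9 with centring and 10 after quantile normalization.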
